A study of Mus musculus with 20 samples.

Results

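The synaptonemal complex and HORMA genes described here are 9 mouse genes, Sycp1, Sycp2, Sycp3, Syce1, Syce2, Syce3, Tex12, Hormad1 and Hormad2, taken by their symbols from a deposited count table of 22066 gene symbols. All 9 were in the table, and all 9 were among the 16534 genes that passed the filter on low counts. They were followed across 20 testis RNA libraries in 5 groups of 4. RNA was selected for poly(A) tails and sequenced from directional libraries.

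The mice of all 5 groups were male NSG mice (NOD scid gamma), an immunodeficient strain without mature T, B or natural killer cells that keeps myeloid cells such as macrophages, and were 6 weeks old at the start. The normal control group (NC) received saline. The ALL group was engrafted through the tail vein with 400000 human cells of a patient-derived xenograft of B-cell acute lymphoblastic leukaemia and was not given the drug. The VCR group received vincristine sulfate, a drug that binds tubulin and stops microtubule assembly, at 0.5 mg/kg into the peritoneum once a week for 3 weeks from day 69, and its labels name no injected cells. The Low-VCR and High-VCR groups were engrafted and given the same course of vincristine, and differed in how far leukaemia cells had infiltrated the blood. Since no label states that the samples of a group came from different mice, the tests measure sample-to-sample spread, part of which may be technical.

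The synaptonemal complex is the protein ladder that holds paired homologous chromosomes together in meiotic prophase. SYCP2 and SYCP3 form the axis, or lateral element, along each chromosome, SYCP1 forms the transverse filaments that bridge the axes, and SYCE1, SYCE2, SYCE3 and TEX12 build the central element where the filaments meet. HORMAD1 and HORMAD2 coat axes that have not yet paired, where they help to make DNA breaks and to signal unpaired chromosomes, and they leave as the complex assembles. In the testis these proteins belong to spermatocytes, so in bulk tissue a lower transcript level can come from fewer spermatocytes or from less RNA per spermatocyte, which cannot be told apart here.

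Library totals ranged from 9425158 to 16357287 counts, so that 3 counts corresponded to 0.167 to 0.365 CPM, the unit of counts scaled to library size used here, below every value reported here for a member gene. The coefficient of biological variation within a group was 9.33% for ALL, 14% for NC, 26% for Low-VCR, 32.9% for High-VCR and 47.1% for VCR. Library numbers in the labels fall in 3 ranges. The lowest range, 1 to 8, held NC and VCR, and the middle and the highest range each held 2 libraries of ALL, Low-VCR and High-VCR. Comparisons of NC or VCR with an engrafted group therefore cannot be told apart from the range.

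Length-scaled levels ordered the genes. In NC, Syce1 stood at 231 CPM per kilobase of exon, Sycp2 at 99.3, Sycp3 at 86.5, Hormad1 at 70.1, Syce2 at 63.5, Syce3 at 43, Sycp1 at 33.5, Tex12 at 7.11 and Hormad2 at 2.81 CPM per kilobase. The central element therefore held both the highest gene per length, Syce1, and one of the lowest, Tex12, although TEX12 binds SYCE2 in one filament. Levels per length were 75.6 for Syce1, 14.5 for Syce2 and 9.76 for Syce3 in VCR, on the same CPM per kilobase scale. Exon lengths came from GENCODE vM21. The exons of Sycp3 share 660 bases, 52.2% of their length, with Chpt1 on the opposite strand, and the strand setting of the counting was not given in the sources used here. Chpt1 itself stood at 52.9 to 67.4 CPM in NC and 63.1 to 87.5 CPM in VCR, and its part in the Sycp3 values was not tested.

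Several of these genes carry the same short words just before an annotated start. They are shown with the E-box CACGTG and the E2F-type word GGCGGGAA in capitals, 5′ to 3′ on the gene's strand. A link between these words and the levels of the genes was not tested. Sequences are RefSeq's for GRCm38.p6, at chr3:95559566-95559676 (plus strand) for Hormad1, chr8:84872155-84872245 (plus) for Syce2, chr9:50561341-50561429 (minus) for Tex12, chr3:102936174-102936209 (minus) for Sycp1 and chr10:88459508-88459564 (plus) for Sycp3.
Hormad1: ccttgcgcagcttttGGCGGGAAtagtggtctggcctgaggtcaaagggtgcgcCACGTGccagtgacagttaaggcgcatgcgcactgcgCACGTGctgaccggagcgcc
Syce2: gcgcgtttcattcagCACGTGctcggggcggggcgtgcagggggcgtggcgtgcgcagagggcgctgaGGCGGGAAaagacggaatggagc
Tex12: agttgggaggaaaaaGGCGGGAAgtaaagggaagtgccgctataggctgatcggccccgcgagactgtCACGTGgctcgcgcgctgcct
Sycp1: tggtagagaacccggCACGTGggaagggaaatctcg
Sycp3: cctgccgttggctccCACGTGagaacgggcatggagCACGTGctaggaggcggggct

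Both strands of each 300-base window, 250 bases before to 50 after the start, were searched in 27025 genes. The E-box CACGTG, a word read by basic helix-loop-helix factors, was present in 5 of the 9 members and in 8.09% of all genes. The word GGCGGGAA, of the kind bound by E2F factors including E2F6, was present in 3 of 9 and in 2.52% of all genes. Hormad1, Syce2 and Tex12 held both words, as did 64 genes in all, or 0.237%. A gene was counted if any of its windows held the words. In Syce2 they lie in window 2, while window 1, from another annotated start, held none of the words searched. The word CNCCTCAG, reported for the meiotic activator STRA8, was present in Sycp1, Syce2, Tex12 and Hormad2, 4 of 9, against 9.12% of all genes, and overlapped the E2F-type word in Syce2. The Myb-type word ACCGTT was present in Sycp1 alone of the members, against 3.87% of all genes, and the windows of Sycp2, Syce1 and Syce3 held none of these letters. The words were chosen after the windows had been seen, and a match is a description of letters, not a binding site.

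Engraftment alone was examined first, in ALL against NC. None of the 9 genes was called by edgeR's quasi-likelihood test in either direction, at an adjusted p under 0.05, where 0% of all genes were called lower and 0% higher. This fit estimated the spread over all 20 libraries, and the treated groups varied more within a group than ALL and NC did. At an unadjusted p under 0.05 the count was 0 of 9 members and 748 of all genes. DESeq2, limma voom and every other alternative, among them a fit of the ALL and NC libraries alone, also called 0 members. Log2 fold changes of the members ran from -0.53 for Hormad2 to 0.28 for Syce3, with a median of -0.20 against -0.02 for all genes tested. Sycp1 stood at 117, 99.9, 132 and 127 CPM in NC libraries 1 to 4 and at 92.0, 91.1, 83.9 and 86.4 CPM in ALL libraries 1 to 4. Sycp1, Sycp2 and Hormad2 were lower in every ALL library than in any NC library, without passing the test, and the other 6 genes overlapped. Of all genes tested, 5.49% were likewise lower in every ALL library than in any NC library.

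Vincristine without labelled engraftment was addressed by VCR against NC. Of the 9 genes, 8 were called lower and none higher, against 35.6% of all genes called lower and 42.1% called higher. The largest decreases were in the central element genes Syce2 and Syce3, 4.38-fold and 4.39-fold, and the 9 genes had a median log2 fold change of -1.22 where all genes tested had 0.10. In none of the 9 did any VCR library reach the lowest NC library, a separation that 34.2% of all genes tested also showed in this direction. Sycp2 was the member that missed the threshold, at an adjusted p of 0.0611. The count of 8 was 5 with scaling by library size alone, 4 when only the NC and VCR libraries were fitted, and 4 without VCR 2.

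**Figure D1:**
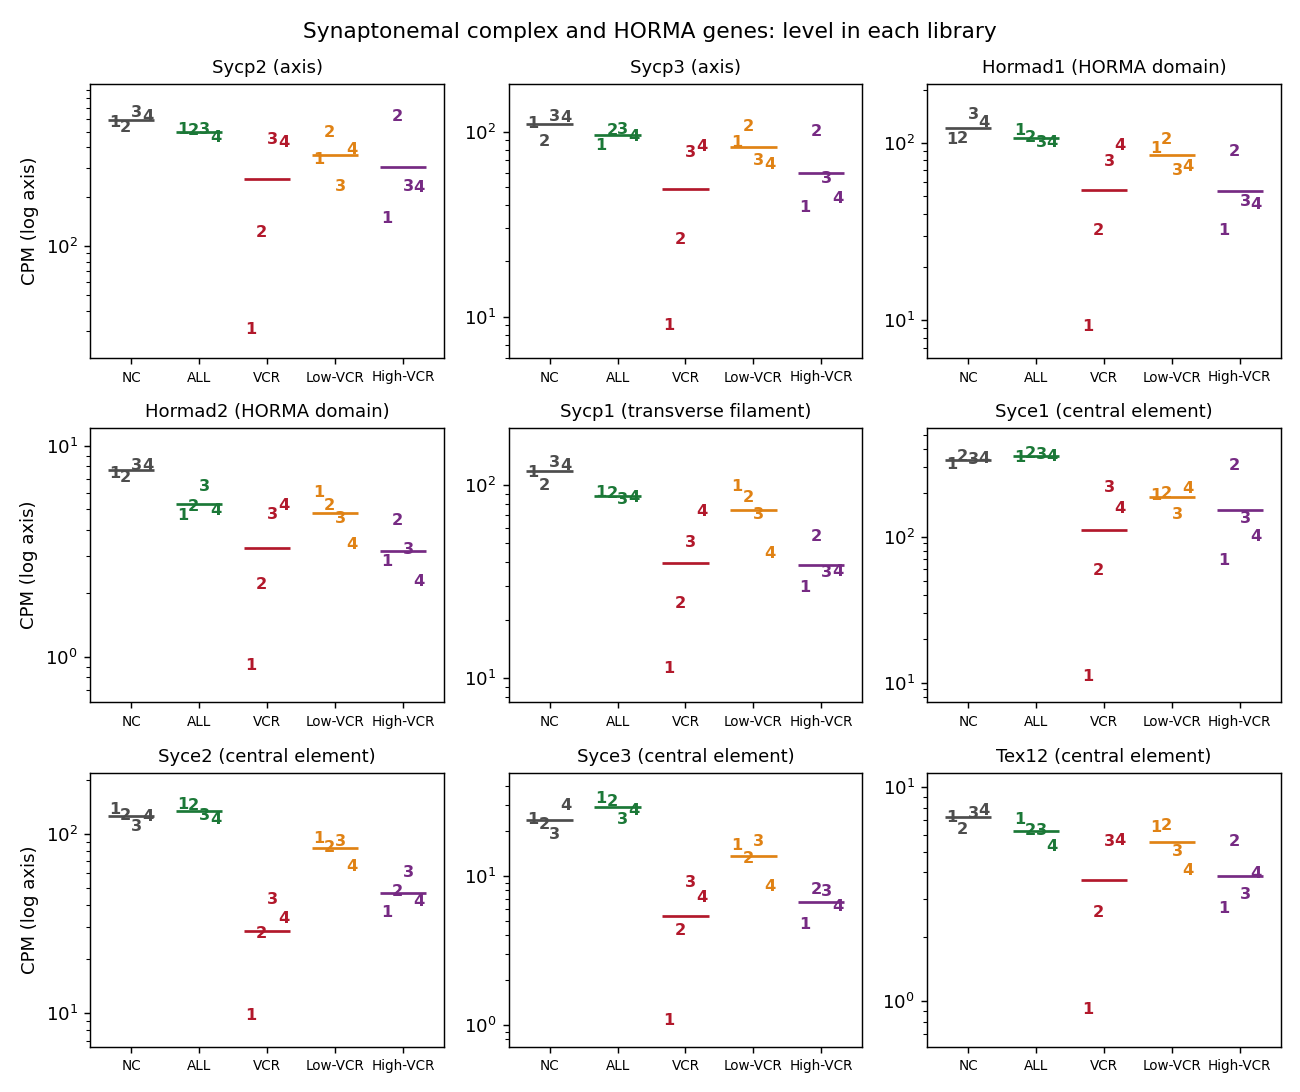
Level of each of the 9 genes in each library, in CPM on a log axis, with digits for the replicate number and a line for the group mean. VCR 1 is lowest of the VCR libraries for all 9 genes, at 9.68 CPM for Syce2 where NC lies between 110 and 137.

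Among the axis genes, Sycp2, the large protein that links SYCP3 to the chromosome axis, stood at 568, 531, 655 and 616 CPM in NC and at 30.9, 121, 448 and 426 CPM in VCR. VCR 1 and VCR 2 were far below the rest, while VCR 3 and VCR 4 lay closer to the lowest NC library. The log2 fold change was -1.21 ± 0.57 (SE), and its adjusted p passed the threshold in 7 of 30 alternatives. Sycp3, the fibre-forming partner of Sycp2, was measured at 110, 87.9, 121 and 119 CPM in NC and 8.99, 26, 77.0 and 83.2 CPM in VCR. The groups did not overlap, with VCR 4 close beneath NC 2, and Sycp3 fell by 1.16 ± 0.46 (SE) on the log2 scale (adjusted p = 0.029). The call for Sycp3 was lost with library size alone, with NC and VCR fitted alone, and without NC 3, NC 4 or VCR 2.

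The HORMA pair was also called lower in VCR. Hormad1, which loads onto unpaired axes and recruits the break machinery with IHO1, stood at 104.9, 106.2, 144.3 and 129.7 CPM in NC. In VCR it stood at 9.22, 32.3, 78.2 and 96.7 CPM, so that VCR 4 came within reach of NC 1. Hormad1 fell by 1.16 ± 0.46 (SE) on the log2 scale (adjusted p = 0.0289), and this call was lost in the same 5 alternatives as that of Sycp3. Hormad2, which brings the checkpoint kinase ATR to unpaired axes, had 7.43, 7.10, 8.05 and 8.1 CPM in NC and 0.914, 2.20, 4.72 and 5.25 CPM in VCR. All 4 VCR libraries were under the lowest NC library, VCR 1 the furthest. Hormad2 fell by 1.22 ± 0.36 (SE) on the log2 scale (adjusted p = 0.00466) and was called in 30 of 30 alternatives.

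Sycp1, the only transverse filament protein, had 11.2, 24.3, 50.2 and 73.0 CPM in VCR against the NC values given above, 99.9 to 132 CPM. Every VCR library was below every NC library, and the fall was 1.59 ± 0.39 (SE) on the log2 scale (adjusted p = 0.00142), called in 30 of 30 alternatives.

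The central element genes spanned the widest range of changes. Syce1, which anchors the central element to SYCP1, stood at 311, 354, 340 and 345 CPM in NC and 11, 58.6, 217 and 155 CPM in VCR. No VCR library reached NC, and Syce1 fell by 1.61 ± 0.58 (SE) on the log2 scale (adjusted p = 0.0172), a call lost when NC and VCR were fitted alone or VCR 2 was left out. Syce2, which stacks with TEX12 into the long fibres of the central element, stood at 137, 127, 110 and 125 CPM in NC and 9.68, 27.6, 43.1 and 33.5 CPM in VCR. Here VCR 3 and VCR 4 were also far below NC, unlike in the axis genes. Syce2 fell by 2.13 ± 0.30 (SE) on the log2 scale (adjusted p = 6.23e-06), a 4.38-fold decrease.

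Syce3, a small protein that recruits the other central element proteins to SYCP1, stood at 23.9, 22.3, 19.1 and 29.9 CPM in NC and at 1.07, 4.33, 9.05 and 7.15 CPM in VCR. The highest VCR library was under the lowest NC library by a wide margin. Syce3 fell by 2.13 ± 0.40 (SE) on the log2 scale (adjusted p = 0.000112). Tex12 was present at 6.35 to 7.8 CPM in NC and at 0.914, 2.58, 5.57 and 5.63 CPM in VCR. Its 2 upper VCR libraries lay close under NC, and Tex12 fell by 0.97 ± 0.37 (SE) on the log2 scale (adjusted p = 0.0236), the smallest change of the 9, lost in 3 of 30 alternatives. Syce2 and Syce3 were called in 30 of 30.

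**Figure D2:**
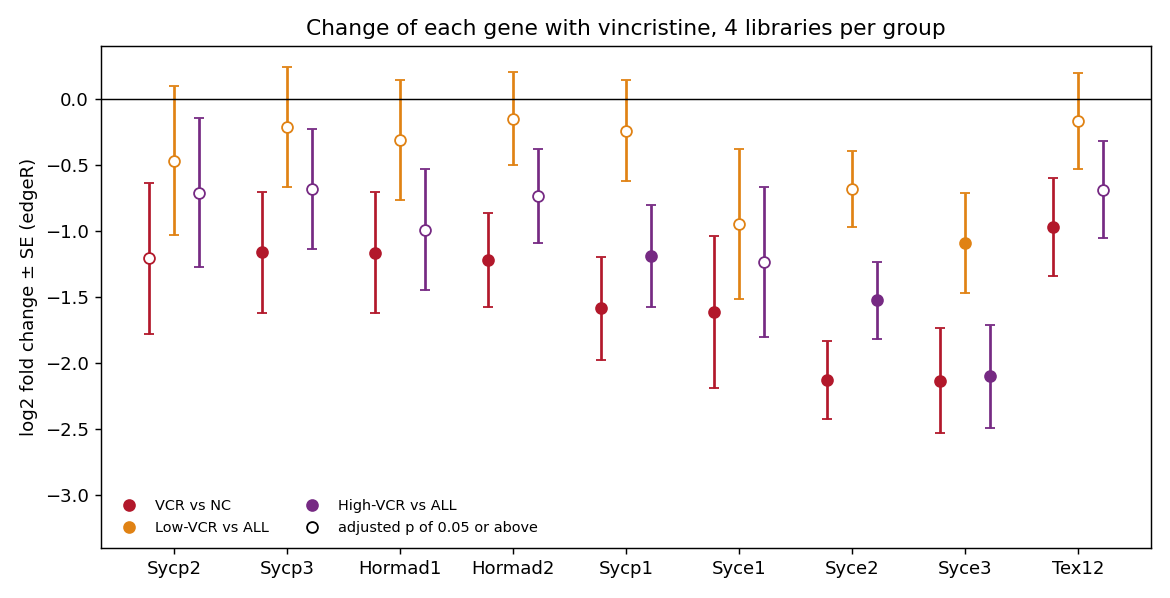
Log2 fold change of each gene with its SE, from edgeR, for VCR against NC, Low-VCR against ALL and High-VCR against ALL, 4 libraries per group, with filled points at an adjusted p under 0.05. All 27 points lie below 0, from -2.13 to -0.15, but with scaling by library size alone Sycp1, Sycp3, Tex12 and Hormad2 lie slightly above 0 in Low-VCR against ALL.

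Vincristine in engrafted mice with low blood infiltration was examined in Low-VCR against ALL. Of the 9 genes only Syce3 was called lower and none higher, against 15.2% of all genes called lower and 36.4% called higher. Syce3 stood at 32.9, 31.6, 24 and 27.4 CPM in ALL and 15.9, 13.0, 16.9 and 8.49 CPM in Low-VCR, and the groups did not overlap. Syce3 fell by 1.09 ± 0.38 (SE) on the log2 scale (adjusted p = 0.0229), and the call was lost with library size alone, without ALL 1 and without Low-VCR 4. The median of the 9 genes was -0.32 against 0.08 for all genes tested.

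Syce2 stood at 146, 143, 127 and 120 CPM in ALL and 93.9, 83.3, 90.7 and 65.8 CPM in Low-VCR. Its groups also did not overlap, with a log2 fold change of -0.69 ± 0.29 (SE) and an adjusted p of 0.0539, which passed the threshold in 8 of 31 alternatives. Syce1 stood at 349, 369, 366 and 352 CPM in ALL and 190, 197, 142 and 215 CPM in Low-VCR. All 4 Low-VCR libraries were under every ALL library for Syce1, where the log2 fold change was -0.95 ± 0.57 (SE) with an adjusted p of 0.159. Of all genes tested, 29.4% had every Low-VCR library under every ALL library, as these 3 members did. The remaining 6 genes overlapped between the groups and had log2 fold changes of -0.47 to -0.15, with adjusted p from 0.471 to 0.716. Hormad1, for one, stood at 117, 107, 100 and 101 CPM in ALL and at 93.4, 104, 70.3 and 73.8 CPM in Low-VCR, where only Low-VCR 2 was inside the ALL range. With library size alone the values of Sycp1, Sycp3, Tex12 and Hormad2 turned to 0.02, 0.04, 0.08 and 0.11. When only ALL and Low-VCR were fitted, 3 genes were called lower, Syce1, Syce2 and Syce3, and the same count was reached in the 12 engrafted libraries with the library-number range as a term.

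Under high infiltration, in High-VCR against ALL, 3 of the 9 genes were called lower and none higher. Of all genes, 30.5% were called lower and 42.4% higher. The 3 members called were Sycp1, Syce2 and Syce3. The median log2 fold change of the 9 was -0.99, against 0.16 for all genes tested. The 3 calls were made in 31 of 31 alternatives, while the count of 3 rose to 7 without VCR 1, to 8 without High-VCR 2 and to 8 when only ALL and High-VCR were fitted.

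Sycp1 had 29.5, 53.9, 35.4 and 35.8 CPM in High-VCR, all below the 83.9 to 92.0 CPM of ALL, and fell by 1.19 ± 0.39 (SE) on the log2 scale (adjusted p = 0.011). Syce2 had 36.1, 47.4, 60.9 and 41.9 CPM in High-VCR and fell by 1.53 ± 0.29 (SE) on the log2 scale (adjusted p = 0.000177), 2.88-fold. Syce3 had 4.75, 8.05, 7.89 and 6.25 CPM and fell by 2.10 ± 0.39 (SE) on the log2 scale (adjusted p = 0.000134), 4.3-fold. In all, 6 of the 9 genes had every High-VCR library under every ALL library, against 29.1% of all genes tested. The 3 called genes are among these 6. Their High-VCR libraries were therefore also below ALL within each of the 2 library-number ranges that hold these groups, which is no separate check.

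High-VCR 2 set the other members apart. It held 616 CPM of Sycp2 where the other High-VCR libraries held 146, 229 and 228 CPM, and ALL held 461 to 518 CPM. It was thus above every ALL library for Sycp2 and within the ALL range for Sycp3, at 99.9 CPM against 38.7, 55.5 and 43.7 CPM. Sycp2 had a log2 fold change of -0.71 ± 0.56 (SE) and an adjusted p of 0.261. Syce1 stood at 68.8, 307, 134 and 99.6 CPM and Hormad1 at 31.9, 89.7, 46.9 and 45.2 CPM in High-VCR. Both were below ALL in every library, again with High-VCR 2 the nearest, and had adjusted p of 0.06 and 0.0603. Hormad2 had 2.85, 4.41, 3.22 and 2.29 CPM, below the 4.68 to 6.45 CPM of ALL, with an adjusted p of 0.0711. Tex12 had 2.71, 5.58, 3.15 and 3.96 CPM, where High-VCR 2 was inside the ALL range of 5.30 to 7.07 CPM, with an adjusted p of 0.0989. High-VCR 2 was the highest High-VCR library for 8 of the 9 genes, the exception being Syce2, and High-VCR 1 the lowest for 8, the exception being Hormad2.

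Within the treated, engrafted groups, High-VCR against Low-VCR called 0 of the 9 genes by edgeR, against 4.69% of all genes called lower and 3.13% called higher, with 3 members at an unadjusted p under 0.05. DESeq2 called 1. All 9 log2 fold changes were below 0, with a median of -0.59 against 0.08 for all genes tested. Syce2 came closest, at 36.1 to 60.9 CPM in High-VCR and 65.8 to 93.9 CPM in Low-VCR, which did not overlap (log2 fold change -0.84 ± 0.29 (SE), adjusted p = 0.0748). Syce3 likewise did not overlap, with 8.05 CPM as the highest High-VCR and 8.49 CPM as the lowest Low-VCR value (-1.01 ± 0.38 (SE), adjusted p = 0.102). These were the 2 of the 9 that did not overlap, against 4.94% of all genes tested with High-VCR the lower. Sycp1 overlapped, since Low-VCR 4 at 44.0 CPM lay under High-VCR 2 at 53.9 CPM (adjusted p = 0.122). Without VCR 1, and in the 12 engrafted libraries with the library-number range, 3 genes were called lower, Syce2, Syce3 and Sycp1.

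The 3 vincristine-treated groups were also set beside each other. Syce2 and Syce3 were higher in Low-VCR than in VCR, 2 of 9 against 16.7% of all genes called higher and 13.6% called lower. Syce2 differed by 1.55 ± 0.29 (SE) on the log2 scale (adjusted p = 0.00339), with 65.8 to 93.9 CPM in Low-VCR and 9.68 to 43.1 CPM in VCR, which did not overlap, as in 13.8% of all genes tested with Low-VCR the higher. Syce3 differed by 1.32 ± 0.39 (SE) on the log2 scale (adjusted p = 0.0197), and its ranges overlapped, since VCR 3 stood at 9.05 CPM and Low-VCR 4 at 8.49 CPM. When VCR and Low-VCR were fitted alone neither gene was called, and 1 was called in the 12 treated libraries. High-VCR against VCR called 0 of 9 by edgeR and by DESeq2, with all 9 genes overlapping. In the edgeR fit 1 member had an unadjusted p under 0.05, and 0.00605% of all genes were called higher. Of all genes tested, 0.641% had High-VCR wholly below VCR and 2.25% wholly above.

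Whether the vincristine difference itself changed with engraftment was tested by the interaction, the Low-VCR minus ALL difference less the VCR minus NC difference. Syce2 alone of the 9 genes was called, at 1.45 ± 0.41 (SE) on the log2 scale (adjusted p = 0.0494), against 5.07% of all genes called either way. Its log2 fold change was -0.69 in Low-VCR against ALL and -2.13 in VCR against NC. Over 30 alternatives the adjusted p ran from 0.012 to 0.138, the call was lost in 22, and the library-number range runs with engraftment here. All 9 members had interaction values above 0, with a median of 0.953 against 0.035 for all genes tested, and 3 had an unadjusted edgeR p under 0.05. Sycp1 came next after Syce2, at 1.34 ± 0.54 (SE) (edgeR adjusted p = 0.134). The same interaction with High-VCR called 0 of the 9 by edgeR and by DESeq2. In the edgeR fit 0 members had an unadjusted p under 0.05, and 0.00605% of all genes were called.

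The order of group means, in CPM, differed little between genes. Syce2 stood at 134 ± 12.6 in ALL, 125 ± 11.5 in NC, 83.4 ± 12.6 in Low-VCR, 46.6 ± 10.6 in High-VCR and 28.5 ± 14.1 in VCR (SD, n = 4). ALL and NC overlapped, as did High-VCR and VCR, while Low-VCR was clear of both neighbours. Sycp2 stood at 592 ± 54.3 in NC, 499 ± 25.9 in ALL, 360 ± 108.6 in Low-VCR, 305 ± 211 in High-VCR and 256 ± 212 in VCR (SD, n = 4). Only NC was clear of its neighbour in that order, since the ranges of ALL, Low-VCR, High-VCR and VCR each overlapped the next. The other 7 genes had NC and ALL as the upper pair, Low-VCR next, and VCR and High-VCR as an overlapping lower pair.

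The genes were also compared within each library, as log2 ratios of CPM with 0.5 added, so that a shift shared by both genes of a pair cancels. Hormad1 relative to Sycp3 was 0.15 ± 0.16 (SD) in NC and 0.15 ± 0.14 (SD) in VCR, a difference of -0.00125 with an exact permutation p of 0.971. In VCR 1, where both genes were near 9 CPM, the ratio was 0.03. The same ratio was 0.16 ± 0.22 (SD) in ALL and -0.15 ± 0.15 (SD) in High-VCR, a difference of -0.31 with an exact permutation p of 0.0571. Sycp1 relative to Sycp3 was -0.11 ± 0.17 (SD) in ALL and -0.55 ± 0.27 (SD) in High-VCR (difference -0.44, exact permutation p = 0.0571). Syce2 relative to Sycp1 was 0.60 ± 0.09 (SD) in ALL and 0.21 ± 0.32 (SD) in Low-VCR (difference -0.39, exact permutation p = 0.0571). In all, 12 such two-sided exact permutation tests were made on 4 ratios, of 4 libraries against 4 with a smallest possible p of 0.0286, and none passed, with adjusted p of 0.229 and above.

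The remaining ratios to Sycp3 were chosen after their values had been seen and are given without a test. Syce3 to Sycp3 lay between -2.63 and -1.96 in NC, -2.07 and -1.35 in ALL, -3.45 and -2.45 in VCR, -2.97 and -2.01 in Low-VCR, and -3.55 and -2.71 in High-VCR, on the log2 scale. Every High-VCR library was therefore under every NC and ALL library, whereas VCR overlapped NC and Low-VCR overlapped NC, ALL, VCR and High-VCR. Syce1 to Sycp3 lay between 1.49 and 2.00 in NC and 0.27 and 1.49 in VCR. Sycp2 to Sycp3 lay between 2.36 and 2.59 in NC and 1.72 and 2.53 in VCR, lowest in VCR 1.

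**Figure D3:**
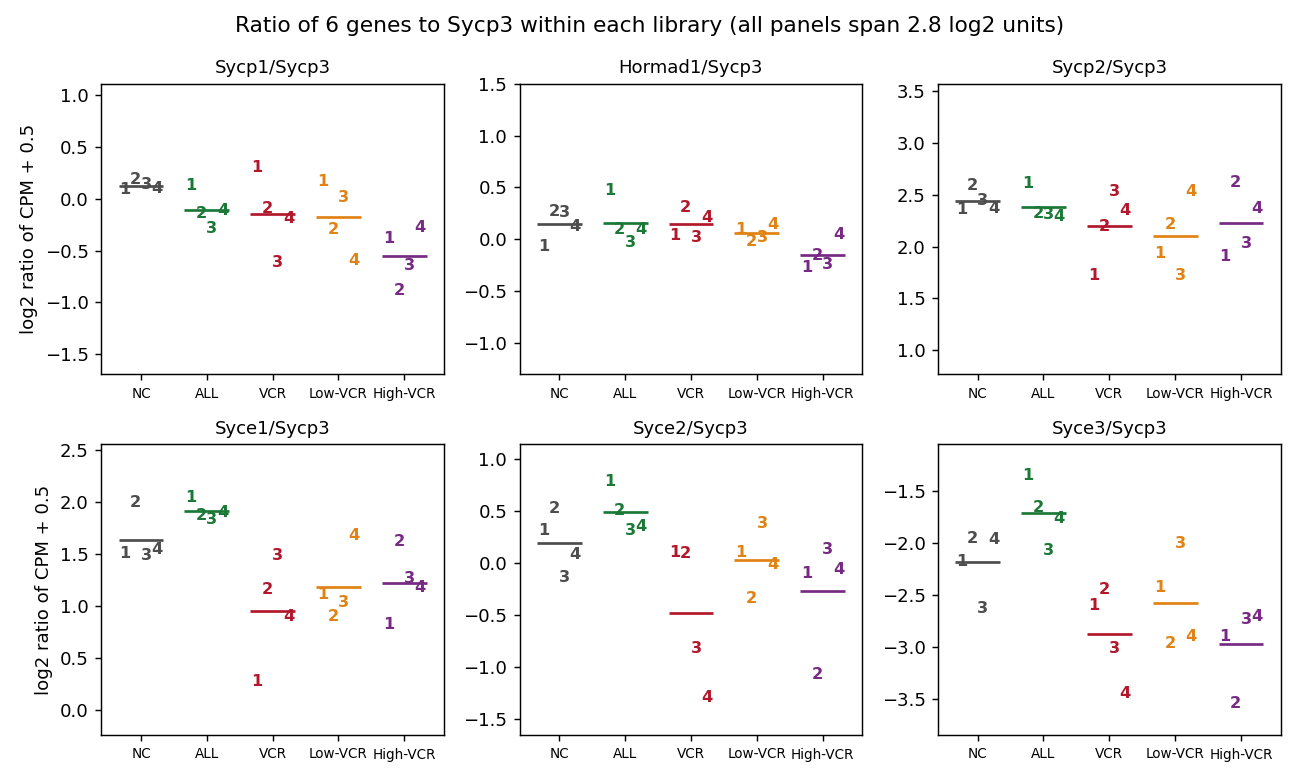
Log2 ratio of 6 genes to Sycp3 within each library, from CPM with 0.5 added, with digits for the replicate number and a line for the group mean. Hormad1 stays within -0.27 and 0.47 of Sycp3 in all 20 libraries, whereas Syce3 runs from -3.55 in High-VCR to -1.35 in ALL.

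Across all 20 libraries the 9 genes were compared by the root-mean-square distance between their centred log2 CPM, given as a description. Hormad1 and Sycp3 were closest to each other, at 0.179 log2 units, as were Tex12 and Hormad2 at 0.231 and Syce2 and Syce3 at 0.293. The rest did not form pairs. Sycp2 and Sycp1 were both nearest to Hormad1, at 0.253 and 0.269, and Syce1 was nearest to Sycp2, at 0.309. Syce3 and Hormad2 were farthest apart, at 0.665. Among the 12253 genes that averaged 5 CPM or more, those outside the set nearest to the members' mean pattern were Ankrd31 at 0.144, Odf2l at 0.15, Shoc1 at 0.162, Ezh2 at 0.171 and Gml at 0.178. ANKRD31 acts in break formation on the axis, SHOC1 in crossover formation and EZH2 in histone H3 methylation. Ankrd31 stood at 70.3 ± 4.08 CPM in NC, 29.4 ± 20.1 in VCR, 62.4 ± 5.71 in ALL and 33.8 ± 18.2 in High-VCR (SD, n = 4).

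Other genes of the same axes were counted next, to be read against the shares of all genes called. In the counts of gene lists here and below, fell and rose mean called lower and called higher. Of 12 tested axis and synapsis partners, 7 fell and 1 rose in VCR against NC, where 35.6% of all genes fell and 42.1% rose, with a median log2 fold change of -0.81. Rec8, a meiotic cohesin subunit, fell by 4.03 ± 0.52 (SE) on the log2 scale (adjusted p = 2.72e-06), from 141 to 8.62 CPM. Smc1b, the meiotic SMC1 cohesin subunit, fell by 2.08 ± 0.43 (SE) (adjusted p = 0.000345). The one that rose was Fkbp6, at 0.26 (adjusted p = 0.0377). Trip13, the ATPase that removes HORMADs from synapsed axes, stood at 14.5 CPM in VCR and 15.4 CPM in NC (adjusted p = 0.479). In Low-VCR against ALL 1 fell and 1 rose, both below the shares of all genes, 15.2% and 36.4%. In High-VCR against ALL 5 fell and 1 rose, where 30.5% of all genes fell and 42.4% rose.

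Among 6 tested genes of telomere attachment, which tether chromosome ends to the nuclear envelope for pairing, 3 fell in VCR against NC, none in Low-VCR against ALL and 1 in High-VCR against ALL, and none rose. With so few genes the first count is not far from the 35.6% of all genes, and the others are below the 15.2% and 30.5%. Kash5, the dynein-binding link, fell by 1.62 ± 0.48 (SE) on the log2 scale (adjusted p = 0.00533) and Sun1, its partner in the inner nuclear membrane, by 0.47 ± 0.15 (SE) (adjusted p = 0.00964). The call for Sun1 was lost with library size alone and with upper-quartile scaling. Of 18 tested recombination genes 11 fell in VCR against NC, 2 in Low-VCR against ALL and 8 in High-VCR against ALL, against the same 35.6%, 15.2% and 30.5% of all genes, and none rose. Brme1, which acts with BRCA2 in meiotic repair, fell by 2.35 ± 0.50 (SE) on the log2 scale (adjusted p = 0.000378). Msh4, which stabilises crossover intermediates with MSH5, fell by 2.35 ± 0.56 (SE) (adjusted p = 0.00112), from 14.4 to 2.79 CPM.

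Of 16 tested regulators of meiotic entry and prophase, 6 fell and 3 rose in VCR against NC, with the lower count near the 35.6% of all genes and the higher count below 42.1%. In Low-VCR against ALL none fell, under the 15.2% of all genes, and 5 rose, near the 36.4%. In High-VCR against ALL 3 fell and 5 rose, both below the 30.5% and 42.4% of all genes. E2f6, a repressor that with MGA, PCGF6 and L3MBTL2 keeps germline genes silent in somatic cells, rose by 1.20 ± 0.14 (SE) on the log2 scale in VCR (adjusted p = 5.53e-07), and Dmrt1, which holds spermatogonia out of meiosis, by 0.75 ± 0.10 (SE) (adjusted p = 5.1e-06). With scaling to Sertoli cell genes both were lower instead, at -0.92 and -1.36. Stra8, the retinoic-acid-induced activator of meiotic entry, stood at 9 CPM in VCR and 10.5 CPM in NC (adjusted p = 0.443).

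Spermatocyte and spermatid markers moved with the members, while spermatogonial markers went both ways. The part of any cell type in the result was not tested. In VCR against NC, 15 of 17 pachytene and diplotene spermatocyte genes fell and none rose (median -1.88), among them Cdc25c at -2.41 and Calr3 at -2.25. All 14 round spermatid genes fell (median -4.06), with Catsper1 at -3.83 and Lyzl4 at -4.15, and all 11 elongating spermatid genes fell (median -2.30), with Prm3 at -2.62 and Gapdhs at -2.30. Of 14 spermatogonial genes 3 fell and 5 rose, both below the shares of all genes, 35.6% and 42.1%. Their log2 fold changes ran from -2.03 for Id4 to 3.07 for Kit, with Ccnd2 at 2.84 and a median of 0.42, which turned to -1.64 with scaling to Sertoli cell genes. The summed level of the pachytene and diplotene genes was 12800 to 13400 CPM in NC, 326 to 7190 CPM in VCR, 5740 to 7790 CPM in Low-VCR and 2630 to 9460 CPM in High-VCR, and that of the round spermatid genes 3100 to 3220 CPM in NC and 40 to 778 CPM in VCR. That of the 9 members was 1340 to 1540 CPM in NC, 83.8 to 932 CPM in VCR, 699 to 1090 CPM in Low-VCR and 361 to 1230 CPM in High-VCR.

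Somatic genes went the other way in the same libraries. In VCR against NC, 21 of 22 Sertoli cell genes rose (Inha 2.19, Shbg 2.82), all 10 Leydig cell genes (Hsd3b1 3.88, Nr5a1 2.87), all 6 peritubular genes (Acta2 1.76, Myl9 1.83), 6 of 7 endothelial genes (Kdr 3.18, Esam 1.94) and all 10 macrophage genes (Lyz2 3.56, C1qa 3.23). Of all genes tested, 42.1% were called higher in VCR against NC. The directions of these lists hold relative to the TMM-adjusted size of each library, not to an absolute amount of RNA. With scaling to Sertoli cell genes, which sets that list near 0 by construction, the median of the Sertoli list went from 1.92 to -0.22, of the peritubular list from 1.45 to -0.67 and of the endothelial list from 1.94 to -0.20, and Acta2, Myl9 and Esam were lower in VCR. The Leydig and macrophage medians stayed above 0, at 0.62 and 0.90, while the median of all genes was -1.99. Sertoli cell genes summed to 2610 to 2930 CPM in NC and 9890 to 15000 CPM in VCR, Leydig cell genes to 1290 to 2060 and 7170 to 16100 CPM, and macrophage genes to 135 to 158 and 710 to 1150 CPM. In each of these lists at most 1 gene had no counts in any NC or VCR library. Of 9 B lineage genes only 3 were tested, and Pax5 fell from 5.96 to 0.232 CPM while Ebf1 rose from 0.662 to 3.63 CPM. Pax5 was called in 30 of 30 alternatives and Ebf1 in 26 of 30. The share of counts from mitochondrially encoded transcripts was 1.87 to 2.6% in NC and 5.66 to 11.9% in VCR, highest in VCR 1, and 4.69 to 9.08% across the Low-VCR and High-VCR libraries, and their part was not tested either.

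**Figure D4:**
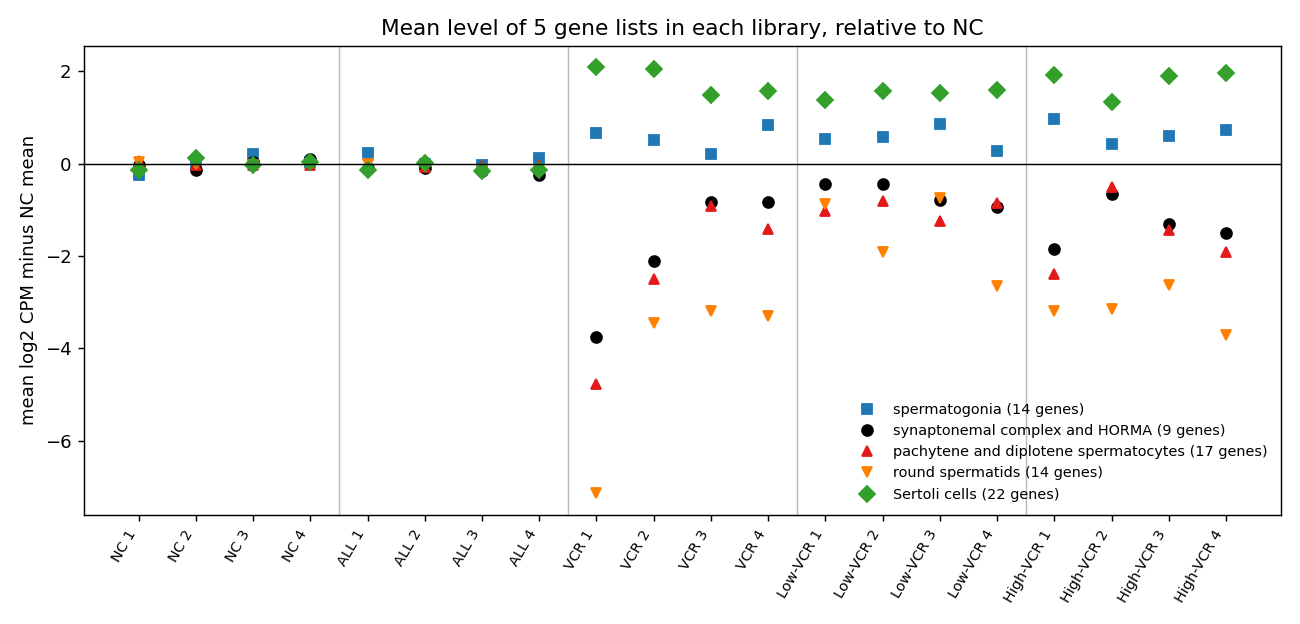
Mean log2 CPM of 5 gene lists in each library minus the NC mean, with the 9 synaptonemal complex and HORMA genes as black circles. In VCR 1 the members stand at -3.75, between spermatogonial genes at 0.66 and round spermatid genes at -7.14, and in High-VCR 2 at -0.65.

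In each vincristine-treated library the mean of the 9 genes was below that of the spermatogonial list. It was above that of the pachytene and diplotene list except in Low-VCR 4 and High-VCR 2. There the members stood at -0.94 and -0.65 log2 units from the NC mean, and that list at -0.85 and -0.50. It was above that of the round spermatid list in each except Low-VCR 3, where the means were -0.78 and -0.75 log2 units from the NC mean. It was above the elongating spermatid list in every VCR library but below it in Low-VCR 2 and 4 and in High-VCR 1, 3 and 4, and the NC and ALL libraries kept no such order. In VCR 1 the members' mean was -3.75 log2 units from the NC mean, with pachytene and diplotene genes at -4.76 and round spermatid genes at -7.14. VCR 3 and VCR 4 stood at -0.82 and -0.83, within the -0.94 to -0.43 of the Low-VCR libraries, while their round spermatid genes were at -3.18 and -3.30. Low-VCR 1, with members at -0.45, had round spermatid genes at -0.87.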

How the data were processed

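The authors deposited raw read counts, one whole number for each symbol and library. The submitters' processing notes list the build GRCm39 and the tools STAR 2.7.10b, Trimmomatic 0.39, DESeq2 1.36.0, Subread 2.0.3 and its featureCounts, without their roles. The sources used here do not give the annotation, the strand setting or any removal of human reads. Groups came from sample titles, and 0 value columns were unmapped.

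Genes were filtered with filterByExpr and fitted over all 20 libraries with edgeR 4.0.16 (TMM, robust glmQLFit and glmQLFTest, R 4.3.3), adjusted by Benjamini-Hochberg over all 16534 genes. SE is the log2 fold change divided by the root of F. Limma 3.58.1 and DESeq2 1.42.0 served as alternatives, with other scalings, filters and library subsets. Ratios used SciPy 1.17.1. The scripts were tested on simulated counts. Replicates differed by more than counting noise (chi-square per degree of freedom at least 3.78).

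Named genes were the 9 members, the 2 genes of each list with the smallest adjusted p in VCR against NC, and the 5 genes nearest in pattern. Fkbp6, Trip13, Stra8, Id4 and Chpt1 were named after their values were seen. Members and lists were chosen with earlier results of these data known. One listed gene is not reported here.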

Additional observations from a re-analysis of the deposited data

Results flagged for a closer look

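Syce2 was the only member called in a test of whether 2 vincristine differences departed from each other. These were the difference in engrafted, low-infiltration mice and that in mice without labelled engraftment. The departure was 1.45 on the log2 scale (edgeR adjusted p = 0.0494). It came from a VCR against NC value of -2.13 and a Low-VCR against ALL value of -0.69, with all 4 Low-VCR libraries above all 4 VCR libraries. The call was lost in 22 of 30 alternatives, and engraftment cannot be told apart from the range of library numbers. The other members departed in the same direction without being called, Sycp1 by 1.34. No library stood apart from its group by Dixon's criterion in any of 65 sets of 4 values examined. Each set held a single gene or ratio in a single group, so the criterion cannot show a library that is extreme across many genes. VCR 1 was the lowest VCR library for every member, and High-VCR 2 the highest High-VCR library for every member except Syce2.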

How the results depend on the processing

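Numbers of members called moved with the setting. In VCR against NC, 8 became 5 with library size alone and 4 with NC and VCR fitted alone, and was 4 to 9 with each library left out in turn (4 without VCR 2). In Low-VCR against ALL, 1 became 2 with DESeq2 size factors, upper-quartile scaling or DESeq2, 0 with library size alone, 9 with Sertoli scaling, and 3 with the groups compared alone or the 12 engrafted libraries with library-number range, and was 0 to 3 with libraries left out (0 without ALL 1 or Low-VCR 4, 3 without VCR 1, 2 without VCR 3). In High-VCR against ALL, 3 became 7 with DESeq2 size factors or DESeq2, 5 with upper-quartile scaling, 9 with Sertoli scaling and 8 with those same subsets, and was 3 to 8 with libraries left out. In High-VCR against Low-VCR, 0 became 1 with DESeq2 and 3 with the engrafted libraries, and was 0 to 3 with libraries left out. In Low-VCR against VCR, 2 became 0 with those groups alone and 1 with the 12 treated libraries, and was 1 to 3 (1 without VCR 2, Low-VCR 1 or Low-VCR 3). The 1 interaction call became 0 with DESeq2 size factors, library size alone, Sertoli scaling, no gene filter, limma voom, the replicate block or the groups compared alone, and was 0 to 2 with libraries left out (2 without VCR 4). The cause was not tested.

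Directions turned with library size alone in Low-VCR against ALL for Sycp3 (0.0392), Hormad2 (0.106), Sycp1 (0.0152) and Tex12 (0.085), and with Sertoli scaling in VCR against NC for Esam (-0.202), E2f6 (-0.923), Dmrt1 (-1.36), Acta2 (-0.389) and Myl9 (-0.328). The ratio differences nearest to 0 also turned with libraries left out, within -0.0733 to 0.0405 for Hormad1/Sycp3 in VCR against NC, -0.163 to 0.00628 for it in Low-VCR against ALL, and -0.186 to 0.0685 for Sycp1/Sycp3 in Low-VCR against ALL. The median of all genes in VCR against NC was 0.10 with the main scaling, 0.49 with library size alone and -1.99 with Sertoli scaling, and that of the members -1.22, -0.855 and -3.19. Replicate numbers did not pair the libraries (same-number correlations -0.384 to 0.526), and the replicate block left 8, 1 and 3 members called in VCR against NC, Low-VCR against ALL and High-VCR against ALL. Depth limits the lowest genes, Tex12 and Hormad2, near 1 CPM in VCR 1, where Syce3 was also low at 1.07 CPM.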
